A study of Mus musculus with 6 samples.

Results

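Squalene epoxidase (Sqle) and 7 further genes of the sterol pathway were followed in mouse tumours: Hmgcs1, Idi1, Fdps, Fdft1, Lss, Cyp51 and Insig1. The members were chosen by symbol with their CPM in RGLS and model libraries known from an earlier look at the same table, and all 8 had a row among the 20160 rows of the deposited table. The tumours grew from S-180 cells, a mouse sarcoma line, injected subcutaneously into BALB/c nude mice, animals without a thymus that keeps other immune cells such as macrophages. The 3 model samples carried the tumour alone, and the 3 RGLS samples came from mice that had been given RGLS before the cells were injected. The labels do not spell out RGLS, and the series title names Ganoderma lucidum spores freed of their coat. Dose, schedule and the age of the mice are not given here. The labels do not say that replicates are different animals, so p-values measure only the spread between these samples, which may be technical.

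Cholesterol is built from acetyl units through mevalonate, isoprenoid diphosphates and squalene. The transcription factor SREBP2 switches on most genes of this route together when sterols in the endoplasmic reticulum are low, and the Insig proteins hold it back when sterols are high. Sqle adds oxygen to squalene and is a rate-limiting step of the route; growing cells use the products of the route for membranes.

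Only Sqle and Fdft1 had enough reads to be compared. Both were lower on average in the RGLS tumours, Sqle from 7.65 to 5.28 and Fdft1 from 9.73 to 7.31 CPM, the read count scaled to a fixed library size. The other 6 members together held 27 reads over all 6 libraries. Whether most of the SREBP2 genes moved with Sqle or apart from it could not be told from so few reads. Why their rows held so few was not tested. Because the choice of members used this same comparison, their differences between RGLS and model are given as a description, with no test.

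Values are CPM on the authors' TMM scale, a trimmed-mean scaling of library size, and are not divided by gene length. All values were whole multiples of 1 read, which was worth 0.0390 to 0.0576 CPM. The rows held 369453 to 458641 reads per library, which was 1.79% to 2.21% of the effective library size. No source used here states how strand was treated in counting. Where a gene on the opposite strand shares exonic bases, its reads and those of the member cannot be told apart. The 6282 rows with a gene opposite summed to 18303 ± 750 CPM in model, of 21524 ± 622 for all rows. A table counted on the strand opposite to each gene was not tested for, so it is not known that the reads of any row, Sqle included, came from the gene's own strand. In tumour tissue, fewer cells of a type and less RNA per cell cannot be told apart.

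Promoter sequence was at hand for 5 of the 8 members (RefSeq, GRCm38.p6, 250 bases before to 50 after the start): Hmgcs1, Idi1, Lss, Cyp51 and Insig1. SREBP2 is known to bind sterol regulatory elements beside sites for the factors NF-Y, which reads the CCAAT box, and Sp1, which reads the GC box. Both strands were searched for TCACNCCAC as a sterol-element-like string, for CCAAT, for the GC box as GGGCGG and for the E-box as CACGTG. All 5 promoters held CCAAT and all 5 held GGGCGG, against 37.4% and 35.7% of 32851 promoters of the same length. Over the 14878 promoters within the members' range of GC content (52.3% to 71.7%), the shares were 36.7% and 56.8%. TCACNCCAC was present in 1 of the 5, that of Hmgcs1, against 1.24% of all promoters, and CACGTG in 1, that of Insig1, against 7.15%. These 2 are shown because they hold the 2 rarer strings. Capitals mark every match on either strand, and a match is a string of letters, not a shown binding site. The Hmgcs1 window lies at chr13:119690101-119690400 on the plus strand and the Insig1 window at chr5:28071162-28071461 on the plus strand.
Hmgcs1: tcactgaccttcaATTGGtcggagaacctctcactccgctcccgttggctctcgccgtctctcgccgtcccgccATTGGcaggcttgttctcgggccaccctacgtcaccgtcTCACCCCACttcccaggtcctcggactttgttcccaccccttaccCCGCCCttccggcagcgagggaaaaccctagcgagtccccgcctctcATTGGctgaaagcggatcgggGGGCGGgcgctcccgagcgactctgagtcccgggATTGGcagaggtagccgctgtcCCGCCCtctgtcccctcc
Insig1: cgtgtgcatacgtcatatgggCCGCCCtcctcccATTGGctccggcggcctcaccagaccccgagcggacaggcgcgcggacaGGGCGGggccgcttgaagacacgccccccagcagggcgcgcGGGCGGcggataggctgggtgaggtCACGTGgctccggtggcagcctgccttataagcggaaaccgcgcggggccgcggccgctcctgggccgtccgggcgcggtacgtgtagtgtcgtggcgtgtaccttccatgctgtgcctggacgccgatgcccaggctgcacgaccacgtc

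Of the other sterol synthesis genes with a promoter entry, 10 of 12 held CCAAT, 10 of 12 held GGGCGG, 3 of 12 held CACGTG and 0 of 12 held TCACNCCAC. The 5 members with these promoters had between 3 and 13 reads each in the tumours.

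Sqle (chromosome 15, 59315077 to 59331192, plus strand, mm10) had 6.45, 9.61 and 6.90 CPM in model libraries 1 to 3 and 5.14, 5.94 and 4.77 CPM in RGLS libraries 1 to 3. All 3 RGLS values lay under all 3 model values, and the highest RGLS value and the lowest model value were 5.94 and 6.45 CPM. The means were 7.65 CPM for model (SD 1.71, n = 3) and 5.28 CPM for RGLS (SD 0.599, n = 3), with 403 and 370 reads. The log2 fold change on log2(CPM + 1) was -0.45 (SE 0.18), a scale on which changes of low rows look smaller than they are. The ratio of reads scaled to library size was 0.690, with an exact 95% interval of 0.598 to 0.797 that covers counting error only.

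Model replicate 2 set much of the size of this difference. Without it the log2 fold change of Sqle was -0.29, and after quantile normalization it was -0.26. It was negative in each of the 16 alternatives in which Sqle was measured, with a range of -0.57 to -0.26. Leaving out a library or changing the value added to CPM could not turn its sign, since the groups did not overlap.

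Sqle has no gene with exons opposite in the annotation. The gene that faces it, Washc5 of the WASH complex of endosomes, ends 804 bases beyond the end of Sqle on the other strand and had 16 reads in all. Among 13450 rows without a gene opposite, 7.65% faced such an end within 1000 bases, as did 17.1% of the 484 of them that reached the level tested. The median log2 fold change was 0.01 in both the 83 facing and the 401 other rows tested. By level, Sqle ranked number 42 of the 13450. Actb, the cytoplasmic actin and a common reference, stood near it in CPM, with means of 3.44 in model and 7.21 in RGLS. The 8 tested of 16 housekeeping rows ranged in log2 fold change from -0.27 (Tbp) to 1.23 (Tubb5), with a median of 0.27, and Actb was the second highest of them. Per kilobase of exon, Sqle had 1.17 CPM and Actb 1.99 CPM over the 6 libraries.

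Against its own class of rows the Sqle difference stood at the low end. The members were chosen with their values known, so their place among other rows is a description and not a test. The rows without a gene opposite had a median log2 fold change of 0.01 and quartiles of -0.22 and 0.39, and 29 of the 484 (5.99%) were lower than Sqle. Among the 90 of them with a mean level within 0.5 to 2 times that of Sqle, 9 were lower, and the median was -0.14. When every library was set to the same median within each class of rows, the Sqle value was -0.57. Less the median over the 2319 tested rows of either class (-0.17), it was -0.28.

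**Figure D1:**
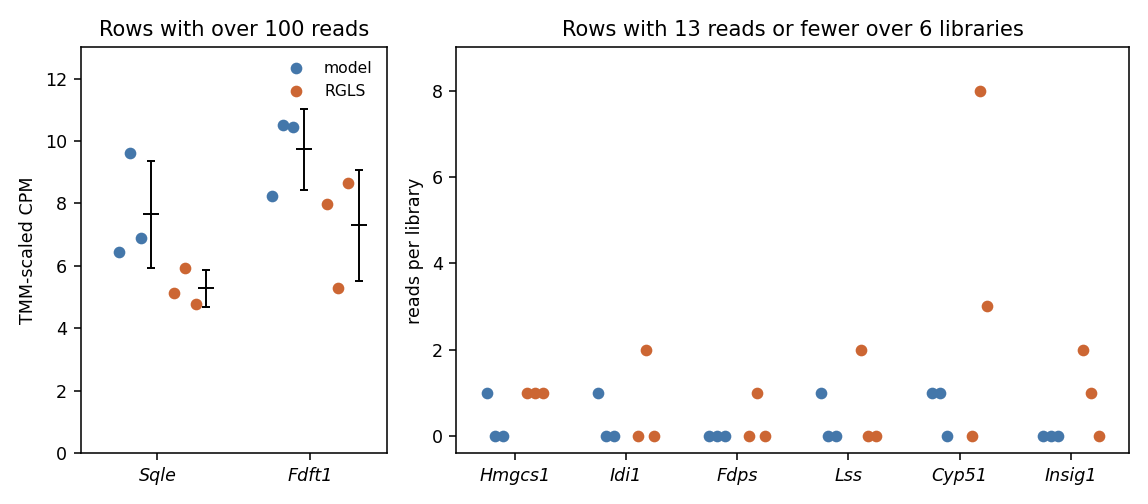
Values of the 8 members by library. Left, TMM-scaled CPM of Sqle and Fdft1, with points for libraries 1 to 3 of each group and bars for the mean and SD (n = 3); right, reads per library of the 6 members with 13 reads or fewer in all. The RGLS points of Sqle lie under its model points, those of Fdft1 overlap, and on the right only Cyp51 passes 2 reads in any library, with 8 in RGLS replicate 2 and 3 in RGLS replicate 3.

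Fdft1 encodes squalene synthase, which joins farnesyl units into the squalene that Sqle uses. Its row (chromosome 14, 63145150 to 63179578, minus strand) had 8.23, 10.5 and 10.4 CPM in model and 7.99, 5.29 and 8.65 in RGLS. The groups overlapped, since RGLS replicate 3 lay above model replicate 1, and RGLS replicate 2 was the lowest of all. The means were 9.73 ± 1.30 and 7.31 ± 1.78 CPM (SD, n = 3 each), with 512 and 511 reads, and the log2 fold change was -0.39 (SE 0.18). The ratio of scaled reads was 0.750, with a counting interval of 0.662 to 0.850. Without RGLS replicate 2 the log2 fold change of Fdft1 was -0.20. It was -0.19 after quantile normalization and -0.21 with the same median set within each class of rows.

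Fdft1 is a row with a gene opposite. Ctsb, which encodes the lysosomal protease cathepsin B, shares 774 exonic bases with it. The class of rows with a gene opposite had a median log2 fold change of -0.19, and 325 of its 1799 tested rows (18.1%) were lower than Fdft1. The row of Ctsb had 1.04, 1.30 and 1.03 CPM in model and 3.82, 3.15 and 1.12 in RGLS, and its log2 fold change was 0.72 with an SE of 0.26 (limma adjusted p = 0.123). RGLS replicates 1 and 2 were above all model libraries while replicate 3 lay among them. Ctsb was called higher in 3 of 16 alternatives (limma, edgeR or DESeq2 adjusted p from 0.00548 to 0.450), including the fit without RGLS replicate 3.

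On the deposited CPM scale, Sqle and Fdft1 were alike in size of difference and not in pattern over libraries. With the same median set within each class of rows, their log2 fold changes were -0.57 and -0.21. The ratio of Sqle to Fdft1 in CPM was 0.783, 0.914 and 0.661 in model and 0.644, 1.12 and 0.551 in RGLS. Its mean was 0.786 ± 0.126 and 0.773 ± 0.307 (SD, n = 3 each), a difference smaller than either spread. RGLS replicate 2 had the highest Sqle value and the lowest Fdft1 value of its group. Measured as the root-mean-square difference of log2(CPM + 1) after each row was centred on its own mean over 6 libraries, Fdft1 was 0.296 from Sqle, number 979 in order of likeness among 2318 rows, with a median of 0.312 over all.

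The 5 tested rows outside the lists with the most similar pattern were Afap1l1 (0.093), Nmt1 (0.095), Mterf2 (0.096), Gpn3 (0.097) and Fer (0.09997) on the same measure over 6 libraries. Their mean levels lay between 1.52 and 2.83 CPM in model and between 0.934 and 1.88 in RGLS. Of these, Fer is the only row with no gene opposite. Their limma adjusted p lay between 0.192 and 0.404.

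Over all rows tested, limma called 34 of 2319 (1.47%) at an adjusted p under 0.05, 0.949% higher and 0.517% lower, and 23.3% had an unadjusted p under 0.05. No call is given for a member, since the choice of members used this comparison. Groups that did not overlap with RGLS lower, as for Sqle, were found in 22.1% of the rows tested, and RGLS higher in 4.53%. These shares are given as background only.

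**Figure D2:**
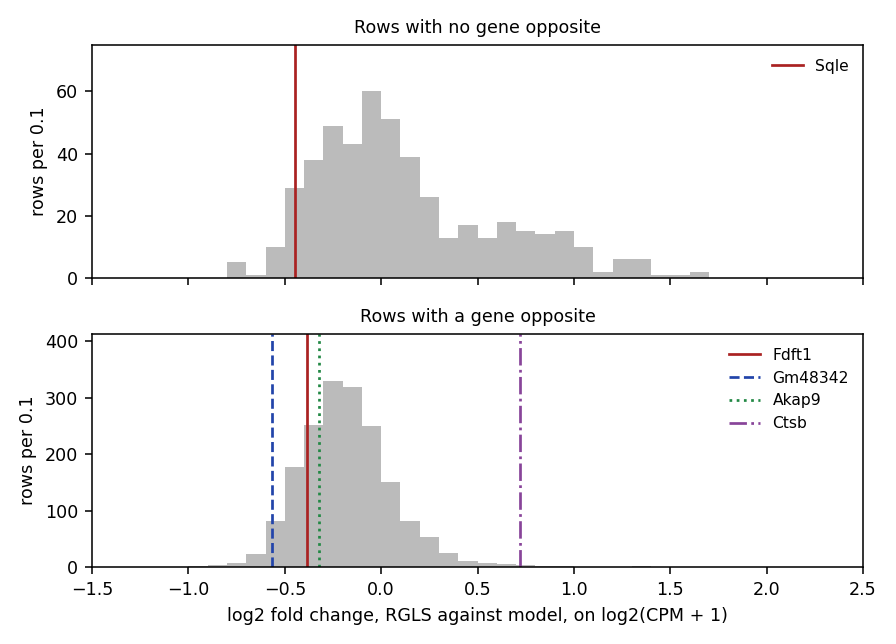
Log2 fold change of RGLS against model on log2(CPM + 1), x axis, for the 484 tested rows with no gene opposite (top) and the 1799 with one (bottom); bars count rows per 0.1, the axis is cut at -1.5 and 2.5, and lines mark Sqle, Fdft1 and 3 rows opposite members. Sqle at -0.45 lies left of its class median of 0.01, while Fdft1 at -0.39 lies nearer the median of its own class at -0.19.

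The other members, in the order of the pathway, were at or near single reads. Hmgcs1, which makes HMG-CoA at the entry of the mevalonate route, had 1, 0 and 0 reads in model and 1, 1 and 1 in RGLS. Idi1, which interconverts the isoprenoid units, had 1, 0 and 0 reads in model and 0, 2 and 0 in RGLS. Fdps, which makes farnesyl diphosphate ahead of Fdft1, had 0 reads in model and 0, 1 and 0 in RGLS. These 3 were at or under the floor of 3 reads in both groups, so no fold is given.

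Lss, which closes the ring after Sqle to give lanosterol, had 1, 0 and 0 reads in model and 2, 0 and 0 in RGLS. Cyp51, the lanosterol demethylase, had 1, 1 and 0 reads in model and 0, 8 and 3 in RGLS. Its ratio of scaled reads was 4.13 with a counting interval of 0.902 to 38.4, and 8 of its 13 reads came from RGLS replicate 2. Insig1, itself an SREBP2 target that retains the SREBP2 escort Scap in the endoplasmic reticulum, had 0 reads in model and 2, 1 and 0 in RGLS. Lss and Insig1 were also at or under the floor in both groups.

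Per kilobase of exon the order of levels over all 6 libraries was Fdft1 with 2.02 CPM, Sqle with 1.17, Cyp51 with 0.0228, Idi1 with 0.00689, Hmgcs1 with 0.00678, Insig1 with 0.00655, Lss with 0.00209 and Fdps with 0.00173. The last 5 rest on 1 to 4 reads each and cannot be ranked among themselves. Fdft1 and Sqle lay above 97.8% and 97.2% of all rows in mean CPM, and the other 6 above 2.97% to 53.5%.

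The summed CPM of the 8 members was 14.9, 20.2 and 17.3 in model and 13.3, 11.8 and 13.6 in RGLS. Every RGLS library lay under every model library, with means of 17.5 ± 2.64 and 12.9 ± 0.973 (SD, n = 3 each). Without Sqle the sum was 8.46, 10.6 and 10.4 in model and 8.18, 5.85 and 8.83 in RGLS, and the groups overlapped. Its means were 9.83 ± 1.19 and 7.62 ± 1.57 CPM. The log2 ratio of the means was -0.44 with Sqle and -0.37 without it.

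Both sums are nearly those of Sqle and Fdft1 alone. Sqle made up 43.6% ± 3.92 of the model sum and 41.3% ± 8.02 of the RGLS sum (SD, n = 3 each). Fdft1 made up 55.8% ± 4.08 and 56.1% ± 9.95, and the other 6 members 0.608% ± 0.823 and 2.55% ± 1.96. The scale of the library also set the size: as a share of all reads in the rows the log2 ratio with Sqle was -0.25, and per 1000 reads of rows without a gene opposite it was -0.69. The summed CPM of all rows was itself lower in RGLS, at 21524 ± 622 in model and 18871 ± 885 in RGLS.

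With Fdft1 left out too, a step chosen after its share was seen, the few reads of the remaining 6 members pointed the other way. They had 4, 1 and 0 reads in model and 5, 13 and 4 in RGLS, a ratio of scaled reads of 3.31 with a counting interval of 1.22 to 11.2. Cyp51 held 13 of these 27 reads. Without Cyp51 the members had 3 and 11 reads, and the interval included 1 (ratio 2.76, 0.728 to 15.4). For all 6 members, each library was also left out. The ratio was 2.01 (0.605 to 7.64) without RGLS replicate 2 and 11.1 (1.79 to 457) without model replicate 1. Without model replicate 2 or 3 it was 2.74 (0.932 to 11.0) or 2.21 (0.815 to 7.45), and without RGLS replicate 1 or 3 it was 4.04 (1.43 to 13.995) or 3.90 (1.39 to 13.4). All 11049 other rows with as few reads in all (1 to 13) had a ratio of 1.30, with 360 ± 24.2 CPM in model and 465 ± 44.5 in RGLS. The interval of the 6 members included 1.30 with all libraries, and whether it did so changed with the library left out. These intervals cover counting error only, not the spread between libraries, and 13 of the RGLS reads came from RGLS replicate 2. The members were chosen with their values known, so no difference from the other rows is read from them.

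**Figure D3:**
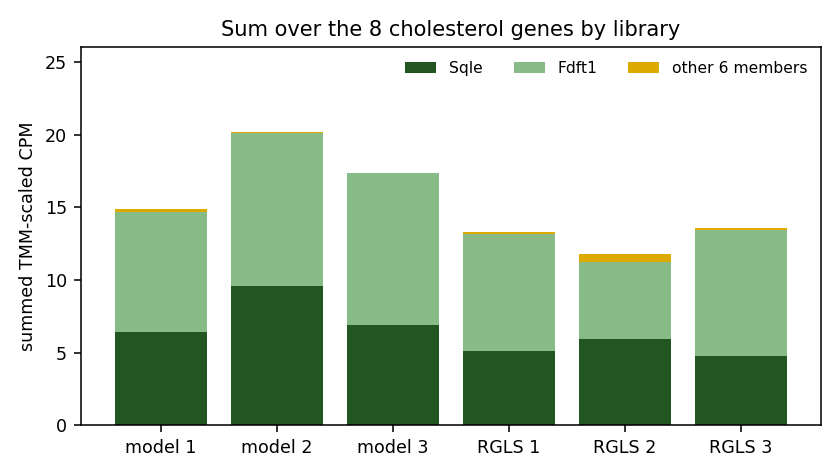
Summed TMM-scaled CPM of the 8 members in each library, y axis, with the parts of Sqle, Fdft1 and the other 6 stacked. The 3 model bars stand at 14.9 to 20.2 CPM and the 3 RGLS bars at 11.8 to 13.6, and the other 6 members are a thin band that is widest in RGLS replicate 2.

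For 5 of the 8 members the table also had a row for the gene opposite. At 4 of these 5 loci the opposite row held more reads than the member. At Hmgcs1 it is Gm48342, an antisense transcript (chromosome 13, 119698360 to 119704549) that shares 557 exonic bases with it. Gm48342 had 476 reads against 4 for Hmgcs1. At Lss it is 4930483K19Rik, an antisense transcript that shares 381 bases and had 101 reads against 3. At Idi1 it is Gm48574 (323 bases, 49 reads against 3), and at Cyp51 it is Akap9, a scaffold protein of the centrosome and Golgi (166 bases, 238 reads against 13).

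Gm48342 had 4.20, 6.56 and 4.34 CPM in model and 2.57, 2.62 and 3.97 in RGLS. All RGLS libraries lay under all model libraries, as for Sqle and for 22.1% of the rows tested. Model replicate 2 was the highest, also as for Sqle. The means were 5.03 ± 1.32 and 3.06 ± 0.795 CPM (SD, n = 3 each), and limma put the log2 difference at -0.57 with an SE of 0.20 (limma adjusted p = 0.119). It was called lower in 1 of 16 alternatives, the fit without RGLS replicate 3 (limma adjusted p = 0.0396, the lowest of a range up to 0.478 over limma, edgeR and DESeq2). Of the 1799 rows with a gene opposite, 52 (2.89%) were lower. Its distance from Sqle in pattern was 0.229, number 348 in order among 2318 rows.

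The remaining opposite rows did not show a common direction. 4930483K19Rik had 1.04, 1.07 and 0.742 CPM in model and 0.740, 0.743 and 0.701 in RGLS, with RGLS replicate 2 just above the lowest model library. Akap9 averaged 2.32 ± 0.244 CPM in model against 1.67 ± 0.476 in RGLS (log2 fold change -0.32, SE 0.20, limma adjusted p = 0.353). Gm48574 had 0.322 ± 0.182 and 0.450 ± 0.147 CPM. The summed CPM of the 3 transcripts opposite Hmgcs1, Lss and Idi1 was 5.35, 8.03 and 5.54 in model and 3.86, 3.89 and 4.95 in RGLS, with no overlap between the groups, most of it from Gm48342. Whether any of these reads came from the sterol gene on the other strand was not tested.

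**Figure D4:**
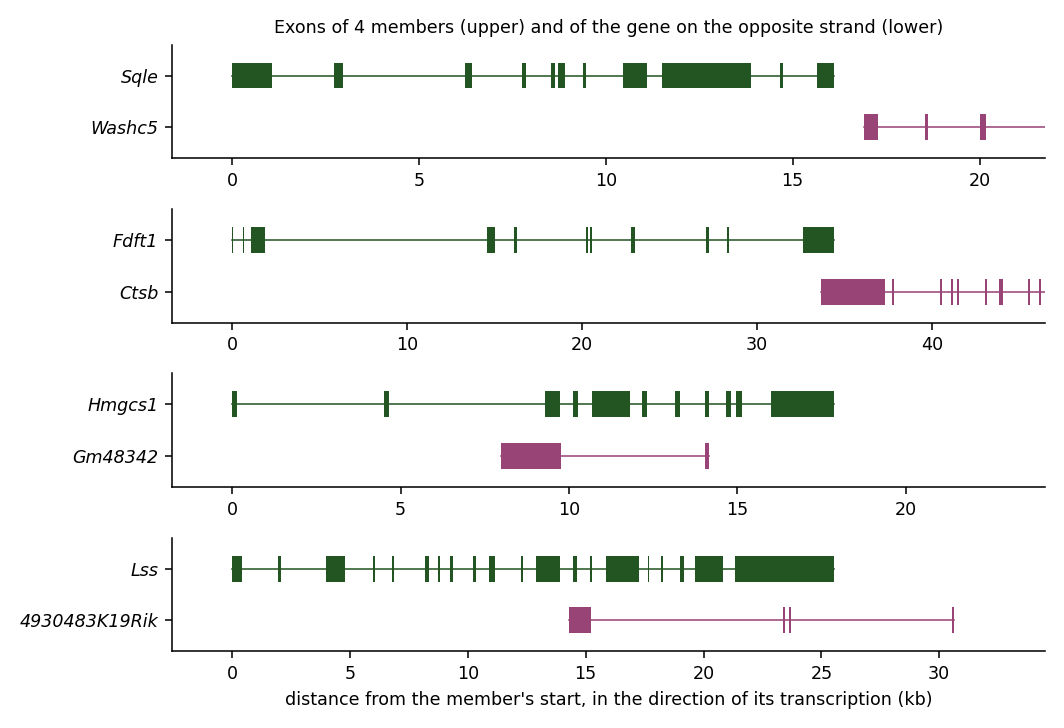
Exons of Sqle, Fdft1, Hmgcs1 and Lss (upper line of each panel) and of the gene on the opposite strand (lower line), drawn by distance from the member's start in kb. Washc5 lies beyond the end of Sqle, with a gap of 804 bases, while Ctsb, Gm48342 and 4930483K19Rik share 774, 557 and 381 exonic bases with their member.

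**Figure D5:**
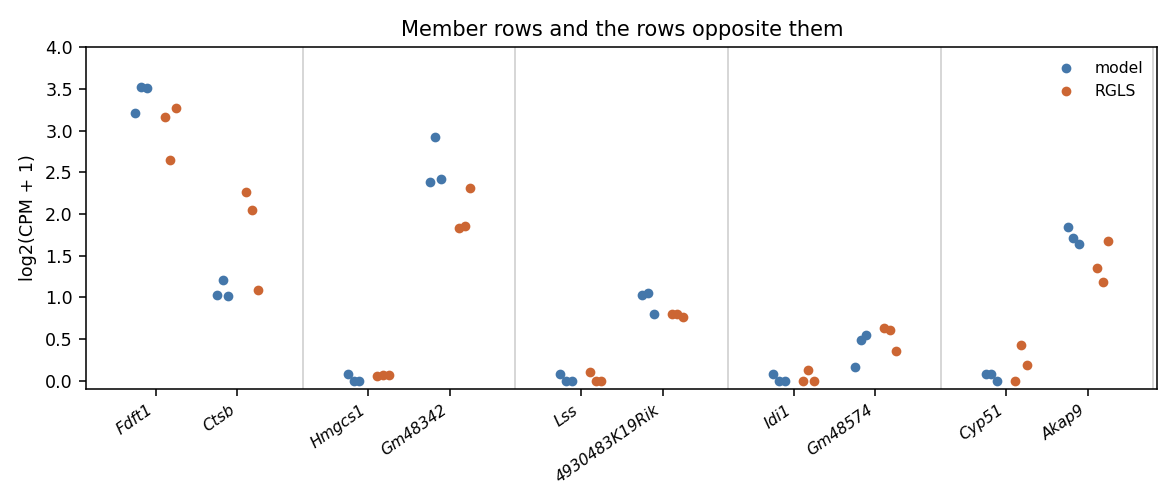
log2(CPM + 1) in each library, y axis, for 5 members and the row opposite each, with model and RGLS libraries as points. At Fdft1 the member's row is the higher of the pair, and at Hmgcs1, Lss, Idi1 and Cyp51 the opposite row is.

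The wider pathway was as thin. Of 15 further listed genes of sterol synthesis, 14 had a row and 0 reached the level tested, 1 CPM or more in 3 or more libraries. Their median was 12 reads over 6 libraries and the most was 62, for Mvd. Mvd, which makes the first isoprenoid diphosphate, had 0.380 ± 0.270 CPM in model and 0.606 ± 0.225 in RGLS. Dhcr7, a reductase of the last steps, had 0 reads in model and 9 in RGLS (chosen after its values were seen). The list summed to 1.90 ± 0.578 CPM in model and 2.22 ± 0.491 in RGLS with overlap between the groups, a log2 ratio of 0.22 that was -0.07 per 1000 reads of rows without a gene opposite.

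The control genes gave 1 tested row of 15. Rnf139, an endoplasmic reticulum ubiquitin ligase of the sterol response, had 7.71, 8.03 and 5.59 CPM in model and 5.06, 5.77 and 6.92 in RGLS. The groups overlapped (log2 fold change -0.22, SE 0.18, limma adjusted p = 0.463). Tatdn1 lies opposite it over 1140 bases. Srebf2, which encodes SREBP2 itself, had 1, 0 and 1 reads in model and 11, 12 and 2 in RGLS (chosen after its values were seen). Each RGLS library was above each model library, as in 6.95% of all rows. Its ratio of scaled reads was 9.40, with a counting interval of 2.34 to 81.9. Scap, the escort of SREBP2, had 11 and 23 reads in model and RGLS, and 5830462I19Rik shares 985 bases opposite it. Scap and Insig2, like Srebf2, were named outside the planned rule for naming rows. Insig2, the second Insig protein, had 7, 7 and 7 reads in model and 9, 6 and 4 in RGLS. Scaled to library size each RGLS library was lower, as in 4.96% of all rows, and the ratio was 0.680 with an interval of 0.346 to 1.33.

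Uptake targets had 6 rows of 7 listed and 0 tested. Acss2, an acetyl-CoA synthetase with 3 genes opposite, had 10 and 32 reads. Its RGLS libraries all lay above its model libraries, as in 6.95% of all rows. The list summed to 0.798 ± 0.315 CPM in model and 1.38 ± 0.173 in RGLS, a ratio of scaled reads of 1.74 (counting interval 1.20 to 2.56). For all rows with no gene opposite it was 1.21, which that interval included. The 1.21 is a ratio of summed reads, in which rows with most reads weigh most, while the uptake rows had a median of 24 reads.

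Of 76 rows in 7 lists (synthesis, control, uptake, efflux, storage and transport, isoprenoid branches and fatty acid synthesis), 4 were tested. limma called 0 of the 4, against 1.47% of all rows tested, and 1 had an unadjusted p under 0.05, against 23.3%. edgeR called 0 of 6 tested, against 49 of 3674 over all rows, and DESeq2 1 of 6, against 75 of 3674. The row that DESeq2 called is Apoe, the apolipoprotein that carries cholesterol out of macrophages. It had 1.32, 1.70 and 0.913 CPM in model and 3.90, 1.92 and 3.55 in RGLS. The 3 RGLS libraries of Apoe lay above the 3 model libraries, as in 4.53% of the rows tested (log2 fold change 0.81, SE 0.23, limma adjusted p = 0.0646). Over 16 alternatives its adjusted p from limma, edgeR or DESeq2 lay between 0.0141 and 0.310, and it was called in 3. Npc1, of sterol export from lysosomes, differed by -0.11 on the log2 scale (limma adjusted p = 0.793) and Pdss1, of ubiquinone synthesis, by -0.08 (limma adjusted p = 0.863). Npc2, the partner of Npc1, had 0.438 ± 0.282 and 1.04 ± 0.316 CPM.

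Cell type markers differed between the groups beside these values. Of 12 mesenchymal markers of a sarcoma, 11 had a row, and their sum was 1.94 to 3.11 CPM in model and 3.79 to 8.14 in RGLS. Of 14 skeletal muscle markers 13 had a row, with sums of 4.72 to 5.65 and 10.1 to 11.6 CPM. Of 4 muscle rows tested, limma called Acta1 and Des higher, against 0.949% of all rows tested. The other tested rows, Ckm (log2 fold change 0.22) and Ttn (-0.10), were not called. Of the 13 muscle rows, 10 had a higher mean in RGLS, against 11510 of all 20160 rows. All RGLS libraries lay above all model libraries in 4 of the 13 and under them in 1, against 6.95% and 4.96% of all rows. Myh1, Myh4, Tnnt3 and Tnni2 had 0 reads in model and 2, 33, 4 and 2 in RGLS. Thy1 and Pdgfrb of the mesenchymal list and Itgam of the macrophage list also had 0 reads in model. They had 5, 5 and 3 in RGLS. Dsp of the skin list and Esam of the endothelial list had 0 reads in model and 1 each in RGLS. The other way, Krt15 and Trp63 of the skin list and Tek and Tie1 of the endothelial list had 0 reads in RGLS. In model they had 1, 1, 2 and 1. Macrophage markers (11 of 12 with a row) summed to 14.8 to 17.0 and 12.4 to 13.8 CPM, mostly from Csf1r, whose row lies opposite Hmgxb3. Without Csf1r, a step chosen after its share was seen, the sum of the other 10 rows overlapped between the groups. It was 1.596 ± 0.536 CPM in model and 2.76 ± 0.905 in RGLS. Of the 11 rows, 9 had a higher mean in RGLS, as did 11510 of all 20160 rows. Keratinocyte and sebaceous markers, cells of the skin with active sterol synthesis, had 5 of 12 rows. They summed to 3.28 to 5.48 CPM in model and 2.45 to 3.12 in RGLS, nearly all from Krt10, opposite Gm11940, while Krt14 had 0 reads in model and 1 in RGLS. Adipocyte markers (10 of 10 with a row) summed to 0.514 to 0.806 and 0.262 to 1.17 CPM, and endothelial markers (8 of 10) to 3.82 to 5.37 and 5.22 to 6.78 CPM. The part of these cells in the values of Sqle and Fdft1 was not tested.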

How the data were processed

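RNA from 6 tumour samples was sequenced, per the labels' protocols from total RNA with a SMARTER mRNA-Seq kit. Bowtie2, HTSeq and mm10 are listed, with no version, per the submitters' processing notes. The deposited file is a table of TMM-scaled CPM made by the authors, in which 100% of values were whole multiples of 1 read (tolerance 0.001 of a read), so reads were recovered. Columns were matched to samples by title. GENCODE vM21 (GRCm38) gave positions for 19732 rows. A row had a gene opposite when 50 or more of its exonic bases lay under exons of the other strand.

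RGLS was compared with model in R 4.3.3 with limma 3.58.1, fitted to log2(CPM + 1) with a trend of variance on level. Tests were 2-sided. P-values were adjusted by Benjamini and Hochberg's method over 2319 rows that reached 1 CPM in 3 or more libraries, and a row was called under 0.05. The fit was tested on simulated data. Alternatives were pseudocounts of 0.1 and 5, other filters and scalings, no trend, a replicate block, each library left out, and the recovered reads tested with DESeq2 1.42.0 and edgeR 4.0.16. Intervals of read ratios are exact, at 95%, and cover counting error only. The floor was 3 reads over a group. Members and lists were chosen with earlier results of these data known. The rule named all members, tested list rows or the 3 with most reads per list, opposite genes, and the 5 rows most like Sqle. Named outside it were Srebf2, Scap, Insig2, Dhcr7, Washc5 and marker rows with 0 reads in a group. Some rows that this rule names are not reported here.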

Additional observations from a re-analysis of the deposited data

How the results depend on the processing

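The log2 fold changes of Sqle and Fdft1 kept their sign in all 16 alternatives that measured them. They lay between -0.57 and -0.26 for Sqle and between -0.51 and -0.19 for Fdft1. The filter of 10 CPM left both out. The sign of Sqle could not turn with a library left out or another pseudocount, since its groups did not overlap. No alternative called a synthesis, control or uptake gene, but most tested few of them. The main filter left 1 of these 35 rows, edgeR and DESeq2 tested 2, and the fit without a filter tested all 35. Without 1 library each, Sqle had -0.55 to -0.29, Fdft1 -0.51 to -0.20, the sum with Sqle -0.54 to -0.32, the sum without Sqle -0.49 to -0.21 and the other synthesis genes -0.0004 to 0.42 (log2). The sum with Sqle was -0.25 as a share of all reads in the rows and -0.69 per 1000 reads of rows with no gene opposite. The sum without Sqle was 1.73 when Fdft1 was also left out, with 5 and 22 reads. Only Insig1 and Fdps remain of that sum among members with no gene opposite, and they had 0 reads in model, so no ratio is given.

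Over all rows, higher and lower calls were 22 and 12. They were 9 and 4 with a pseudocount of 0.1, 208 and 67 without a filter, 4 and 84 with the filter of 10 CPM, 10 and 4 with the same median and 7 and 2 after quantile normalization. Lower calls were 7 with the same median within classes, and the calls were 11 and 3 without an intensity trend, 35 and 14 with edgeR and 71 and 4 with DESeq2. Leaving out 1 library gave 7 to 103 higher and 3 to 106 lower calls, the most without RGLS replicate 3. The cause was not tested. The replicate block gave 111 and 120 calls, but same-numbered libraries deviated together only for number 3 (r of deviations 0.004, -0.006 and 0.378), so the numbers were not taken to pair the samples. The 6 low members had 1 to 13 reads each, too few to detect a difference.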
